A study of Mus musculus with 50 samples.

Results

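Intermediate digits sampled 14 days after amputation were compared with intermediate digits sampled 24 hours after amputation. The rule took the 3 digits labelled Medium at 14 days and the 3 labelled Medium at 24 hours, which makes 6 of the 50 samples of the series. The tissue was the wound bed and what lay around it in the distal terminal phalanx (P3, the last bone of the toe with its nail, skin and connective tissue) of the third hindlimb digit of male C57BL/6 mice aged 9 to 10 weeks. The labels give no transgene and no agent for any animal. "Intermediate" names an amputation level between distal cuts, after which a mouse toe tip regrows, and proximal cuts, after which it does not. The label of each digit gives the share of P3 removed. It was 42%, 52% and 54% in the digits at 14 days and 41%, 50% and 52% in the digits at 24 hours, and each digit is named here by that percentage. Each library was made from the poly(A) RNA of 1 digit, so it holds epidermis, nail, blood, vessels, fibroblasts and bone together. In such bulk tissue, fewer cells of a type and less RNA per cell cannot be told apart.

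Healing of an amputated toe begins with clotting, with adhesion of leukocytes to activated vessels, with an influx of neutrophils and then of macrophages, and with a sheet of keratinocytes that moves under the clot. Over the following days osteoclasts erode the bone stump and mesenchymal cells fill the wound with new matrix. Osteoblasts, which make the collagen-rich osteoid and mineralize it, then form bone by direct (membranous) ossification. A day after the cut and a fortnight after it thus sample an early and a late stage, and the question here is which genes separate these stages in digits cut at an intermediate level.

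Values below are normalized counts, which are the expected read counts of a gene scaled to a common library size over the 6 libraries. They are given in the order 42%, 52% and 54% at 14 days, and 41%, 50% and 52% at 24 hours. The totals per library lay between 3408916 (the 54% digit at 14 days) and 10862504 (the 52% digit at 24 hours) expected counts. A gene was called where edgeR's quasi-likelihood test gave a Benjamini-Hochberg adjusted p under 0.05 over all 13168 genes tested and the group means of its normalized counts, with 1 added to each, differed more than 2-fold. Log2 fold changes are of 14 days over 24 hours, with their standard error (SE), and n = 3 digits in each group throughout. Nothing in the labels says how far digits of a group shared litters or handling, so the p-values measure the spread between these samples only.

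Some facts of the labels touch every result. The 42% digit at 14 days and the 50% and 52% digits at 24 hours bear dates of a later period, and the 52% and 54% digits at 14 days and the 41% digit at 24 hours bear dates of an earlier period, so each group mixes both. The 42% digit at 14 days carries the same code, date and side as a non-regenerative digit of the same day cut at 80%. The study cut the third digit of each hindlimb, so as labelled the pair cannot come from 1 animal. Either 1 of these labels is wrong, in which case the pair may share an animal, or the code does not name a single animal. Elsewhere in the series, digits sampled at different times also share code, date and side, so such sharing is not particular to this pair. Which reading holds was not tested. The 42% digit is also the least amputated digit at 14 days. Spearman correlations of the counts between the 6 libraries lay between 0.910 and 0.978. Counts below are therefore also given without the 42% digit at 14 days and with the date period as a term of the fit.

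At 14 days 166 genes were higher (1.26% of the genes tested) and 13 were lower (0.0987%). All 179 had 6 values that did not overlap between the groups, as did 24.8% of all genes tested, and 2239 genes had an unadjusted p under 0.05. Among listed genes that rose, those of the extracellular matrix were the most numerous. The falls were led by Il6, Mmp3, Lif and the selectins Selp and Sele. Of the 393 genes tested among the functional lists, 64 rose and 3 fell, beside 1.36% of all genes called in either direction. The lists were chosen with earlier results of these data known, so this difference is no test of them. The counts depend on single digits. Without the 42% digit at 14 days 307 genes were higher (2.28%) and 137 lower (1.02%), which is 3.3% in all. They were 41 and 2 without the 52% digit at 14 days, 47 and 1 without the 54% digit, 101 and 12 without the 41% digit at 24 hours, 45 and 3 without the 50% digit, and 55 and 1 without the 52% digit at 24 hours. With the date period as a term, 87 were higher (0.661%) and 4 lower (0.0304%), which is 0.691% in all. Each count of list members below is to be read beside the share of all genes called in the same fit.

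**Figure D1:**
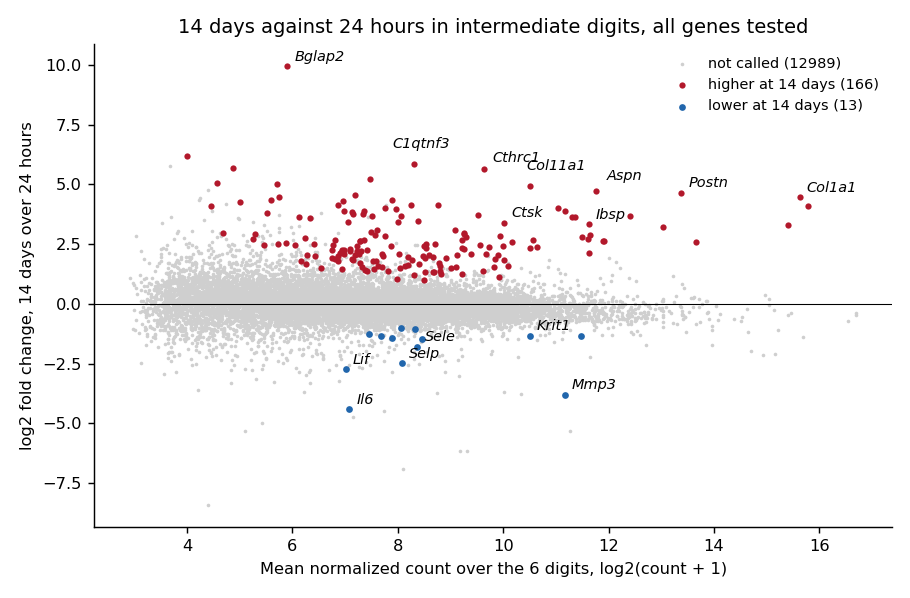
Each point is 1 of the 13168 genes tested, with its mean normalized count over the 6 digits on a log2 scale (horizontal) and its log2 fold change of 14 days over 24 hours (vertical). The 166 genes called higher (red) spread over the whole range of levels up to Col1a1, and the 13 called lower (blue) reach from Ephx1 at -1.03 to Il6 at -4.40. The point of Bglap2 rests on 0 counts at 24 hours, so its height depends on the prior count of the fit.

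Collagens were the largest list among the rises. Of 37 collagen genes tested in all, 19 rose. All 19 are among the 24 listed chains, a list chosen with earlier results known, of which none fell and whose median log2 fold change was 2.66, beside -0.01 over all genes tested. Col1a1 and Col1a2 encode the chains of type I collagen, the main protein of bone, dermis and tendon. Col1a1 (chr11:94936224-94953042, GRCm38) stood at 70766, 127764 and 92098 at 14 days and at 6301, 3135 and 3827 at 24 hours (log2 fold change 4.45 ± 0.40 (SE), adjusted p = 0.00267). The lowest digit at 14 days was thus more than 10 times the highest at 24 hours. Col1a2 followed it with 66035, 135647 and 116857 against 7333, 5447 and 6114 (log2 fold change 4.08 ± 0.36). Type III collagen, the fibrillar collagen of early granulation tissue, is encoded by Col3a1, which stood at 33305, 108326 and 96128 against 6572, 8091 and 9703 (log2 fold change 3.29 ± 0.46).

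The minor fibrillar chains, which nucleate collagen fibrils and set their width, included the largest log2 fold change of the list, that of Col11a1. It stood at 1985, 3224 and 3254 at 14 days and at 71.9, 110.1 and 98.4 at 24 hours (log2 fold change 4.91 ± 0.30 (SE), adjusted p = 0.00143), the smallest adjusted p of the chains named here. Col24a1, a fibrillar chain of forming bone, stood at 303, 503 and 547 against 23.6, 22.3 and 21.1 (log2 fold change 4.33 ± 0.30). The 3 digits of each group lay close together in both genes. Col5a1 rose by 3.69, Col5a2 by 3.22 and Col12a1, a chain that sits on fibril surfaces, by 3.62 on the log2 scale. The beaded-filament chains Col6a1, Col6a2 and Col6a3 rose by 2.62, 2.71 and 2.87. Col8a2, a network-forming chain, stood at 259.9, 439 and 518 against 8.25, 38.3 and 28.4 (log2 fold change 4.0 ± 0.50).

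The 5 listed chains without a call were Col4a1, Col4a2, Col14a1, Col18a1 and Col2a1. Col14a1, a chain on fibril surfaces, stood at 97.4, 428 and 266 against 42.4, 121 and 61, with overlapping groups. Col4a1 and Col4a2, the chains of basement membranes, were each higher in all 3 digits at 14 days (0.94 and 0.88 on the log2 scale, adjusted p = 0.0572 and 0.0751). Their overlapping exons on opposite strands share reads if the counting ignored strand, which is not given in the sources used here. Col18a1, the basement membrane precursor of endostatin, stood at 1484, 1934 and 1598 against 2386, 1218 and 1336, with overlapping groups. Col2a1, the main collagen of cartilage, stood at 155, 24.9 and 10.7 against 43.6, 21 and 45.3 and was highest in the 42% digit. Without that digit the list again had 19 calls, with Col14a1 in and Col22a1 out, and with the date period as a term it had 14. Leaving out any other digit gave 9 (the 52% or the 54% digit at 14 days), 11 (the 50% or the 52% digit at 24 hours) or 15 (the 41% digit).

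The enzymes and chaperones that fold, trim and cross-link collagen showed rises too. Of 20 listed genes, all tested, 9 rose and none fell, beside 1.26% of all genes called higher. The median log2 fold change was 1.41. Lox, the lysyl oxidase that starts cross-linking outside the cell, stood at 1428, 1844 and 1858 at 14 days and at 286, 172 and 263 at 24 hours (log2 fold change 2.83 ± 0.24 (SE), adjusted p = 0.00267). Plod2, which hydroxylates the telopeptide lysines used for bone-type cross-links, stood at 559, 649 and 656 against 121, 139.8 and 184 (log2 fold change 2.06 ± 0.21). In both genes the 3 digits at 14 days lay close together. P3h1 and Fkbp10, which modify and fold procollagen and are mutated in forms of brittle bone disease, rose by 2.07 and 1.99 on the log2 scale. Serpinh1, the collagen chaperone of the endoplasmic reticulum, rose by 1.53, the C-proteinase Bmp1 by 1.38, its enhancer Pcolce by 1.2 and the N-proteinase Adamts2 by 2.04. Loxl2 rose by 2.1, but 44.1% of the 65-base windows of its transcripts also lie in another annotated gene, and Pcolce shares exon sequence with Fbxo24 on the same strand, so these counts are less certain. Without the 42% digit at 14 days 12 of the list rose, with the date period 6. Without another digit it was 4 (the 52% or 54% digit at 14 days, or the 50% digit at 24 hours), 5 (the 52% digit at 24 hours) or 6 (the 41% digit).

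Among 24 matricellular proteins, adhesive glycoproteins and small leucine-rich proteoglycans, all tested, 12 rose and none fell, with a median log2 fold change of 2.61. Postn, which encodes periostin, a matrix protein of periosteum and healing wounds that assists collagen cross-linking, stood at 5856, 27039 and 28470.4 at 14 days and at 619, 827 and 989 at 24 hours (log2 fold change 4.65 ± 0.60 (SE), adjusted p = 0.0106). The 42% digit lay far below the other two at 14 days and still lay above all 3 digits at 24 hours. The proteoglycan gene Aspn (asporin) showed the same order of digits, with 1867, 8145 and 10122 against 120.2, 212 and 425 (log2 fold change 4.72 ± 0.72). Lum (lumican), which spaces collagen fibrils, stood at 2859.9, 5411 and 6374 against 370.0, 340.1 and 462 (log2 fold change 3.64 ± 0.33).

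Thbs2, a thrombospondin of connective tissue, stood at 2188, 5015 and 4649.8 at 14 days and at 242, 192 and 299 at 24 hours (log2 fold change 4.01 ± 0.37). Sparc (osteonectin), a collagen-binding protein abundant in bone, stood at 23312, 22926 and 20281 against 3691, 3003 and 4348 (log2 fold change 2.59 ± 0.24), and its 42% digit did not stand below the others. Fbn2, the fibrillin of growing tissue, was near the low end of detection at 24 hours with 8.25, 16.1 and 4.83 and reached 237, 367 and 432 at 14 days (log2 fold change 5.23 ± 0.46). Tnn (tenascin-W), Omd (osteomodulin), Ogn (osteoglycin), Wisp1, Fmod and Bgn rose by 3.87, 4.32, 4.12, 3.45, 2.66 and 2.64 on the log2 scale. Fn1 (fibronectin) and Tnc (tenascin-C), both early wound matrix proteins, were not called. Fn1 stood at 3484, 7878 and 8033 against 1651, 1040.2 and 2495 (adjusted p = 0.0767) and Tnc at 1484, 3055 and 2051 against 1925, 747 and 1049 (adjusted p = 0.315). Without the 42% digit at 14 days 17 of the list rose, Fn1 among them, and with the date period 7 did. Leaving out another digit gave 6 (the 52% or 54% digit at 14 days, or the 50% digit at 24 hours), 7 (the 52% digit at 24 hours) or 8 (the 41% digit).

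Outside the lists, Cthrc1, C1qtnf3, Edil3 and Capn6 were among the largest rises. Cthrc1, a secreted protein of activated fibroblasts and osteoblasts, stood at 756, 1880.3 and 2012 at 14 days and at 29.5, 24.7 and 38 at 24 hours (log2 fold change 5.63 ± 0.44 (SE), adjusted p = 0.00253). C1qtnf3, a secreted protein related to adiponectin, stood at 186, 661 and 1013 against 2.36, 6.18 and 19.3 (log2 fold change 5.85 ± 0.80). Both were lowest at 14 days in the 42% digit, as Postn was. Edil3, an integrin ligand, stood at 211, 292 and 336 against 9.43, 1.24 and 21.1, and Capn6, a calpain-like protein of embryonic muscle and skeleton without protease activity, at 105, 107 and 89.3 against 2.36, 8.66 and 3.02. In neither did the 42% digit at 14 days lie far from the other two.

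Enzymes that cut the matrix moved both ways. Of 21 listed proteinases and inhibitors 20 were tested, of which 6 rose and 1 fell, and the median log2 fold change was 1.09. The gelatinase Mmp2 and its membrane activator Mmp14 rose together. Mmp2 stood at 2411, 5934 and 6849.5 at 14 days and at 523, 757 and 876 at 24 hours (log2 fold change 2.82 ± 0.41), and Mmp14 at 1595, 2650.4 and 3054 against 424, 532 and 497 (log2 fold change 2.33 ± 0.27). Timp2, the inhibitor that also takes part in Mmp2 activation, rose by 2.13 on the log2 scale. Mmp23, Adamts12 and Plat (tissue plasminogen activator) rose by 3.82, 3.62 and 2.24. Mmp3 (stromelysin-1), described below, was the member that fell. Mmp13, the collagenase of bone turnover, stood at 1984, 386 and 452 against 899, 225 and 334 and was highest in the 42% digit at 14 days, with overlapping groups. Timp1 stood at 139.6, 108 and 96.5 against 524, 99 and 258, and its groups overlapped too. The rises numbered 7 without the 42% digit and 3 with the date period, 2 without the 52% digit at 14 days or the 50% digit at 24 hours, and 3 without any 1 of the other 3 digits. Mmp3 kept its call in each of these fits.

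The osteoblast genes that rose ranged from transcription factors of the lineage to proteins of mineralized matrix. Of 22 listed osteoblast and osteocyte genes 19 were tested, 7 of them rose and none fell, and the median log2 fold change was 1.95. Runx2, the factor that commits cells to bone, stood at 226, 215 and 264 at 14 days and at 37.7, 42 and 85.7 at 24 hours (log2 fold change 2.06 ± 0.34). Sp7 (osterix), which acts after it, stood at 251, 73.7 and 118 against 16.5, 7.42 and 12.7 (log2 fold change 3.58 ± 0.55). Alpl, the alkaline phosphatase that frees phosphate for mineral, stood at 482, 354 and 345 against 66, 54.4 and 94.8 (log2 fold change 2.44 ± 0.27). Unlike the fibrous matrix genes, Sp7 and Alpl were highest at 14 days in the 42% digit. Ibsp (chr5:104299171-104311469), which encodes bone sialoprotein, a nucleator of mineral, stood at 11179, 2986 and 3095 against 430.1, 518 and 749 (log2 fold change 3.34 ± 0.56 (SE), adjusted p = 0.0296). Its 42% digit held more than 3 times the level of either other digit at 14 days. Phex, an endopeptidase of osteocytes that is lost in X-linked hypophosphataemia, stood at 331, 382 and 182 against 17.7, 13.6 and 32.6, and Pth1r, the parathyroid hormone receptor, at 263, 313 and 223 against 44.8, 37.1 and 47.7.

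Bglap2 encodes osteocalcin, a calcium-binding matrix protein made by mature osteoblasts. It had 0 counts in all 3 digits at 24 hours and 106, 79.9 and 166 normalized counts at 14 days, which is at least 31.6-fold higher against a floor of 3 counts in the smallest library at 24 hours (adjusted p = 0.00588). The 3 osteocalcin genes are near copies of each other. Of the 65-base windows of Bglap2 80.3% also lie in another gene, first of all Bglap, so the share each gene received in the counting is uncertain. Bglap stood at 198, 500.1 and 247 against 75.4, 2.47 and 2.41 (adjusted p = 0.152), and Bglap3 at 211, 195 and 219.8 against 220.4, 178 and 147 (adjusted p = 0.679). The groups overlapped in Bglap3. Dmp1, an osteocyte protein, stood at 399.6, 235 and 163 against 96.6, 50.7 and 60.4 and missed the threshold (adjusted p = 0.0585). Spp1 (osteopontin), made by macrophages and osteoclasts as well as bone cells, stood at 1326, 1189 and 1496 against 1704, 874 and 925, with overlapping groups. The list again had 7 calls without the 42% digit at 14 days or the 41% digit at 24 hours, 6 with the date period, 5 without the 52% digit of either group, and 4 without the 54% digit at 14 days or the 50% digit at 24 hours.

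Of 17 listed osteoclast genes 13 were tested and 2 rose. Ctsk (cathepsin K), the protease with which osteoclasts digest bone collagen and which some fibroblasts also make, stood at 1526, 1886 and 2232 at 14 days and at 106, 195 and 234 at 24 hours (log2 fold change 3.39 ± 0.32 (SE), adjusted p = 0.00267). Atp6v0d2, a proton pump subunit of fused osteoclasts, stood at 94.5, 100.4 and 105 against 0, 1.24 and 6.04 (log2 fold change 5.02 ± 0.72). The 3 digits at 14 days were nearly level in that gene. Acp5, the tartrate-resistant acid phosphatase, was higher in all 3 digits at 14 days (356, 199.8 and 227 against 129.6, 122 and 132) but was not called (adjusted p = 0.113). The fusion genes Dcstamp and Ocstamp were too low to be tested, with values from 0 to 25 over the 6 digits. Tnfsf11, the osteoclast-inducing ligand RANKL, stood at 80.2, 39.1 and 12.5 against 67.2, 34.6 and 30.8, with overlapping groups. Of the pair that rose, 1 was called without the 52% or the 54% digit at 14 days or without the 50% digit at 24 hours, and Car2, a carbonic anhydrase, was called lower without the 42% digit.

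Of 16 listed cartilage genes 12 were tested, 2 rose and none fell, and the median log2 fold change was 0.55. Acan (aggrecan), a proteoglycan of cartilage and tendon, stood at 637, 1183 and 1267 at 14 days and at 211, 63.1 and 199.8 at 24 hours (log2 fold change 2.69 ± 0.46). Matn3 (matrilin-3) rested on 88 reads at 14 days and 1 read at 24 hours, a ratio of 94.6 per unit of depth with an exact 95% counting interval from 16.5 to 3779. The defining regulator of chondrocytes, Sox9, stood at 379, 349 and 238 against 331, 512 and 395, and its groups overlapped. The collagens Col9a1, Col9a2 and Col9a3 did not exceed 27.5 in any of the 6 digits, and Matn1 was at 0 in all of them. Neither call was made with the date period as a term, and leaving out any digit but the 42% one left 1 call or none.

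**Figure D2:**
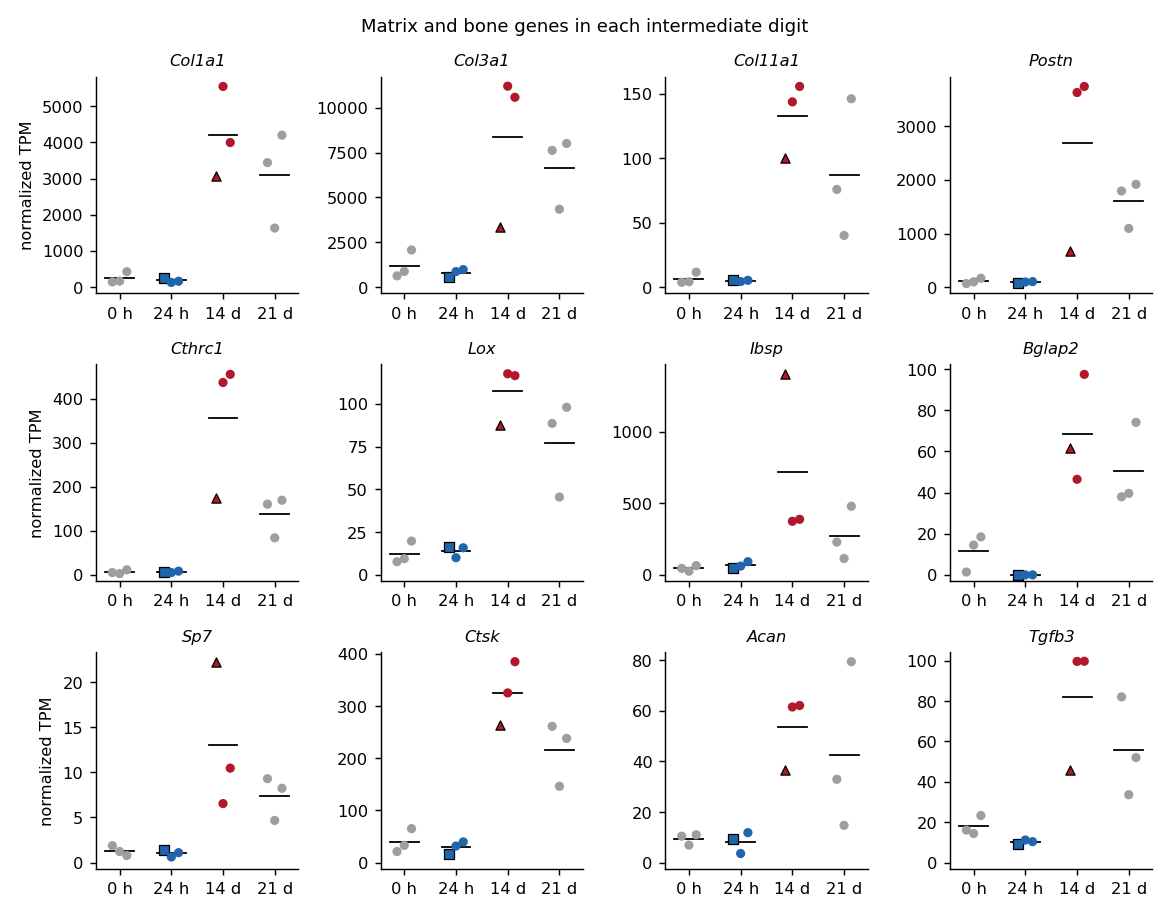
Each panel shows 1 gene in the 12 intermediate digits, in the authors' normalized TPM on a linear scale, with 3 digits at each time and a bar at their mean. The triangle is the 42% digit at 14 days and the square the 41% digit at 24 hours. In all panels the 3 digits at 14 days (red) lie above the 3 at 24 hours (blue). The triangle is the highest red point for Ibsp and Sp7 and the lowest for Col1a1, Col3a1, Postn, Cthrc1 and Tgfb3. In the normalized counts given above, the 42% digit was also the lowest at 14 days for Col11a1, Acan, Lox and Ctsk.

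Fewer calls fell among the signals that act on mesenchyme and bone. Of 30 listed BMP, Wnt, hedgehog and TGF-beta pathway genes 29 were tested, 4 rose and none fell, and the median log2 fold change was 0.52. The ligands Tgfb2 and Tgfb3, which drive matrix synthesis in mesenchymal cells, rose. Tgfb3 stood at 604, 1309 and 1309.9 at 14 days and at 127, 156 and 139 at 24 hours (log2 fold change 2.93 ± 0.32), and Tgfb2 at 370.2, 521 and 422 against 86, 184 and 158 (log2 fold change 1.62 ± 0.30). Gdf10, another ligand of that family, and Dkk3, a secreted dickkopf-related protein, rose by 2.23 and 2.40 on the log2 scale. Bmp2, a ligand known to drive bone formation, had overlapping groups, with 99.5, 144 and 164 against 131, 149.7 and 107 (0.07 ± 0.27 on the log2 scale). The Wnt ligand Wnt5a was higher in all 3 digits at 14 days, 913, 814 and 788 against 324, 494 and 419, at an adjusted p of 0.0524. The count was 5 rises and 1 fall without the 42% digit, 2 rises with the date period (Tgfb3 and Wnt5a), 2 without the 41% digit, and 1 without any 1 of the other 4 digits.

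In the list of 17 fibroblast and limb mesenchyme genes, all tested, 3 rose and none fell, and the median log2 fold change was 1.27. Fap, a surface protease of activated fibroblasts, stood at 179, 353 and 475 at 14 days and at 21.2, 21 and 33.8 at 24 hours (log2 fold change 3.68 ± 0.42). Pdgfrb, a growth factor receptor of fibroblasts and pericytes, stood at 319, 621 and 606 against 156, 135 and 199 (log2 fold change 1.65 ± 0.29). Hoxd13, which patterns the digits of the embryo, stood at 133, 125 and 150.1 against 43.6, 42 and 58.6 (log2 fold change 1.49 ± 0.27), a rise alike in the 3 digits. Hoxd13 and Pdgfrb were not called with the date period as a term, nor was Hoxd13 without the 42% digit (adjusted p = 0.0525). Leaving out any other digit left 1 call on the list.

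The promoters of Il6, Mmp3 and Sele are shown as those of a cytokine, a matrix protease and an endothelial adhesion gene among the 13 falls. They are the 250 bases before the annotated start, 5′ to 3′ on the gene's strand, from RefSeq on GRCm38.p6. Capitals mark matches to TGANTCA, the letters bound by AP-1, and to an NF-kB pattern (GGGA, any base, TTTCC), on either strand.
Il6, chr5:30012864-30013113, plus strand: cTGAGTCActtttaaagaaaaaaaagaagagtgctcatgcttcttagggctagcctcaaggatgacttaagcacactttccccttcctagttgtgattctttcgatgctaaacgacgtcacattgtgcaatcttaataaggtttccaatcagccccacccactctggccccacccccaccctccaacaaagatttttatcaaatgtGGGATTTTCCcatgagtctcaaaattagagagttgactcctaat
Mmp3, chr9:7445572-7445821, plus strand: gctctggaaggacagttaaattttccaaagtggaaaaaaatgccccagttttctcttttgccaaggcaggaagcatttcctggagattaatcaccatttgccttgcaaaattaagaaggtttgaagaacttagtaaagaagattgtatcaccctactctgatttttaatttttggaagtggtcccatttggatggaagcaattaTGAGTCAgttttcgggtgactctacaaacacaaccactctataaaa
Sele, chr1:164047984-164048233, plus strand: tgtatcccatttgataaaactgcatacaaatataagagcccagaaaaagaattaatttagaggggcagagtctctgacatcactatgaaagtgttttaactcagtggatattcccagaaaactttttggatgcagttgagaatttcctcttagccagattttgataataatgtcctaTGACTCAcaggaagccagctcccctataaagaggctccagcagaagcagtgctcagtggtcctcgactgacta
The AP-1 letters begin 46 bases before the start in Mmp3, 73 in Sele and 249 in Il6, and the NF-kB letters 44 bases before the start in Il6. Of the 13 genes called lower, 11 had an entry in the promoter table and 6 of these held the AP-1 letters in the 250 bases (Il6, Lif, Mmp3, Nme1, Sele and Selp). Of the 115 matched genes called higher 10 did (8.70%), and of all 10118 matched genes tested 6.20% did. The NF-kB letters were in 0.494% of the tested genes' windows, and in 1 of those called lower, Il6. TGTGGT, the letters bound by RUNX factors, searched on both strands, were in 12.7% of the tested genes' windows and in 12 of the 115 called higher (10.4%). The windows shown hold no match to it, and the matches within them do not overlap. These counts describe letters only, with no test.

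Il6 encodes an inflammatory cytokine of fibroblasts, macrophages and endothelium. It stood at 17.9, 0 and 19.7 normalized counts at 14 days and at 354, 207 and 205 at 24 hours (log2 fold change -4.40 ± 0.79 (SE), adjusted p = 0.0385). Lif, a cytokine of the same family that acts through the shared gp130 receptor, stood at 48, 18.6 and 32.2 against 343, 166 and 161 (log2 fold change -2.74 ± 0.45). In both genes the highest digit at 14 days lay below the lowest at 24 hours, and the 41% digit was the highest at 24 hours. Lif was called without the 42% digit and lost its call without any 1 of the other 5, and Il6 kept its call only without the 42% or the 52% digit at 14 days. Neither was called with the date period as a term (adjusted p = 0.0734 and 0.06). For Il6 the log2 ratio of the mean counts plus 1, 14 days over 24 hours, was -5.03 within the earlier dates and -3.45 within the later dates.

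Mmp3 encodes stromelysin-1, a secreted protease of wound fibroblasts and basal keratinocytes that cuts proteoglycans and activates other proteinases. It had the smallest adjusted p of the falls, at 450.4, 242 and 225 at 14 days and 4571, 3641 and 4662 at 24 hours (log2 fold change -3.80 ± 0.32 (SE), adjusted p = 0.00267). The 3 digits at 24 hours lay close together, and all lay far above those at 14 days. Within the earlier and the later dates the log2 ratios were -4.28 and -3.20, and it was called under all alternatives tried. Of its 65-base windows 5.47% are shared with its neighbour Mmp10.

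Selp and Sele encode the selectins with which activated endothelium (and, for Selp, platelets) catches rolling leukocytes. Selp stood at 117, 57.7 and 67.9 at 14 days and at 766, 334 and 265 at 24 hours (log2 fold change -2.47 ± 0.45). Sele stood at 223, 93.3 and 125 against 641, 412 and 486 (log2 fold change -1.79 ± 0.34). The adhesion genes Icam1 and Vcam1 were also looked at, and neither was called lower. Of 16 general endothelial markers tested none was called, 14 had a log2 fold change above 0 and the median was 0.41, beside -0.01 over all genes. Pecam1, for example, stood at 354, 548 and 398 against 536, 256 and 401. The selectins were not called with the date period as a term (adjusted p = 0.0772 and 0.0804). Both were called without the 42% digit and lost their call without any 1 of the other 5 digits, where the adjusted p of Sele lay between 0.097 and 0.232.

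The other 8 falls were smaller. Per2, a repressor of the circadian clock, stood at 165, 124 and 89.3 at 14 days and at 375, 338 and 328 at 24 hours (log2 fold change -1.44 ± 0.25). Nme1, a nucleoside diphosphate kinase, and Npm3, a nucleolar chaperone, fell by 1.49 and 1.34 on the log2 scale. Each shares exon sequence with another annotated gene (10.7% and 20.3% of windows). Psg16 shares 0.948% of its windows with other genes, most often with Krit1. The ratio of Psg16 to Krit1 expected counts lay between 1.836 and 2.117 over the 6 digits compared. Over the 12 intermediate digits it lay between 1.534 and 2.117, and over all 41 digits between 0.848 and 3.413. Psg16, Krit1, Cbr3 and Exoc4 fell by 1.35, 1.33, 1.27 and 1.065. Krit1, a protein of endothelial junctions, stood at 888, 723 and 868 against 2687, 1769.9 and 1771, and Cbr3, a carbonyl reductase, at 105, 114 and 87.6 against 267, 239 and 237. Ephx1, an epoxide hydrolase, was the smallest fall (log2 fold change -1.03). The digits of each group lay close together in Cbr3. In Krit1 the 41% digit stood above the others at 24 hours, and in Per2 the digits at 14 days spread from 89.3 to 165. Per2, Nme1, Npm3, Cbr3 and Exoc4 kept their call without the 42% digit at 14 days and lost it without any other digit. Psg16 and Krit1 kept theirs only without that digit or without the 41% digit at 24 hours.

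**Figure D3:**
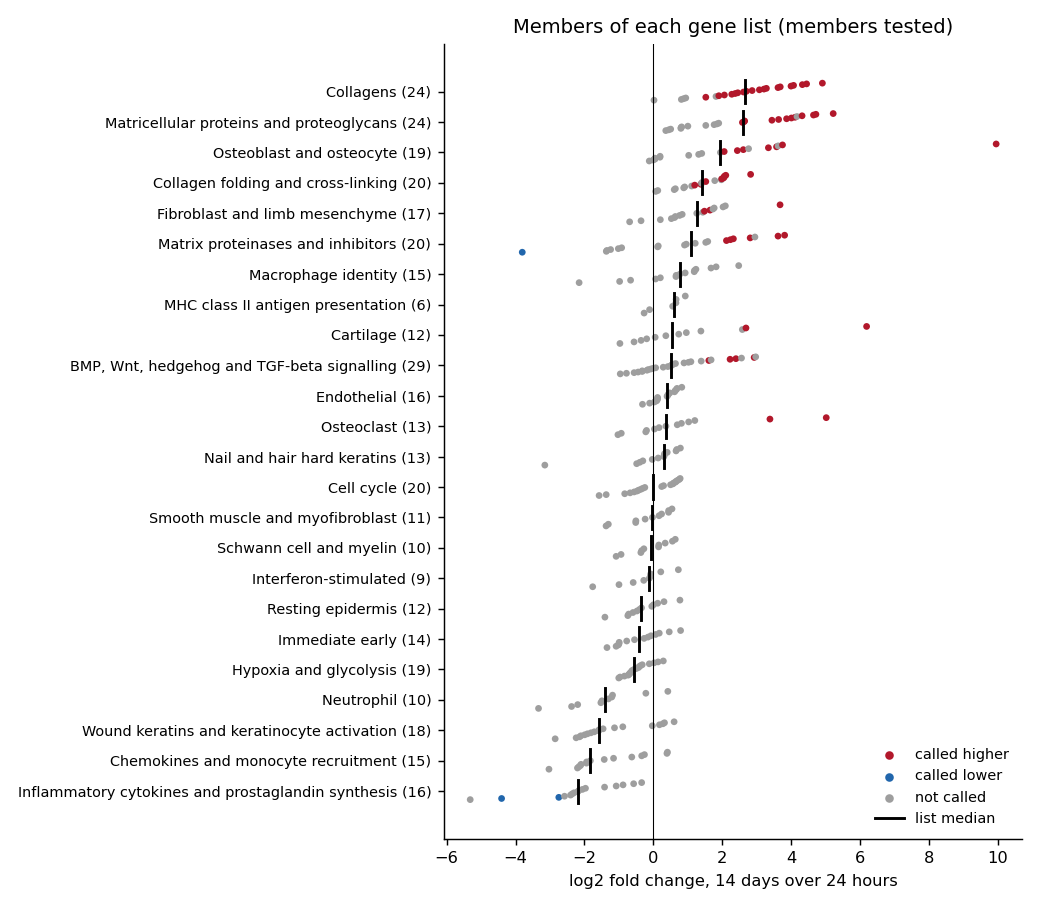
Each row is 1 of the 24 lists with at least 6 members tested, ordered by median, and each point is the log2 fold change of 1 member at 14 days over 24 hours. Called members are red (higher) or blue (lower) and the black bar is the list median. Collagens and matrix proteins lie on the right with 31 of their 48 members called, beside 1.36% of all genes tested. Cytokines, chemokines, wound keratins and neutrophil genes lie on the left with 2 members called between them (Il6 and Lif).

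The rest of the inflammatory genes lay on the same side as Il6 with far more spread. Of 21 listed cytokine and prostaglandin genes 16 were tested, all 16 had a log2 fold change below 0 and the median was -2.18, yet only Il6 and Lif were called. Il1b, the main cytokine of the inflammasome, stood at 406, 15.1 and 17.9 at 14 days and at 1578, 348 and 471 at 24 hours (adjusted p = 0.323). The 42% digit lay above the 50% digit at 24 hours, so the groups overlapped. Ptgs2, the inducible enzyme of prostaglandin synthesis, stood at 344, 159.9 and 42.9 against 1911, 329 and 618 (adjusted p = 0.197). The call of Il6 was kept without the 42% digit at 14 days, where Il1b and Socs3 joined the calls for 4 in all, and 1 or none of the list was called without any 1 of the other 5 digits or with the date period.

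No chemokine gene was called among 15 tested of 19 listed, where 13 lay below 0 and the median was -1.83. Cxcl1 and Cxcl2 draw neutrophils through their receptor Cxcr2. Cxcl1 stood at 324, 25.8 and 10.7 at 14 days and at 1611, 821 and 624 at 24 hours, and Cxcl2 at 618, 5.33 and 0 against 1651, 411 and 879.6. The 42% digit again held nearly all of the signal at 14 days. The neutrophil list showed the same digit. Its summed level was 4866, 416 and 259 normalized counts at 14 days and 5220, 1097 and 2161 at 24 hours, and of 10 members tested none was called (median -1.40). S100a9, a subunit of calprotectin in neutrophils and stressed keratinocytes, stood at 3090.5, 41.8 and 10.7 against 1554, 235 and 567, so the 42% digit at 14 days was the highest of the 6. The granule gene Elane and the surface marker Ly6g did not exceed 1 count in any of the 6 libraries.

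Without the 42% digit at 14 days, 4 chemokine genes (Cxcl1, Cxcl2, Cxcl5 and Ccl7) and 3 neutrophil genes (S100a9, Trem1 and Hdc) were called lower, beside a background of 1.02%. S100a9 then had a log2 fold change of -4.78 (adjusted p = 0.0394), against 0.42 with that digit. Cxcl1 had -5.69 (adjusted p = 0.0036) and Cxcl2 -8.11 (adjusted p = 0.00533). The 42% digit differed from the other digits at 14 days in its cut, its dates and its shared label at once, and these cannot be told apart.

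Of 17 listed macrophage genes 15 were tested, 12 lay above 0 and none was called (median 0.77). Gpnmb, a glycoprotein of lipid-laden macrophages and osteoclasts, stood at 116, 779 and 770.2 at 14 days and at 61.3, 94 and 138 at 24 hours. Its 52% and 54% digits stood well above all others and its 42% digit did not, and it was called without the latter, as was Ms4a7. Csf1r, the receptor that macrophages depend on, stood at 178, 371 and 234 against 141, 110.1 and 159 (adjusted p = 0.192). Cd163, a marker of resident macrophages, ran the other way at 22.2, 61.3 and 48.2 against 28.3, 209 and 339, with overlapping groups. The MHC class II genes of antigen presentation (6 tested) and the interferon-stimulated genes (9 tested) had medians of 0.61 and -0.11 and no call.

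The wound keratins and other genes of keratinocyte activation summed to 76102, 40734 and 20331 normalized counts at 14 days and to 403325, 44676 and 87802 at 24 hours. The 41% digit at 24 hours held more than 4 times any other digit, and none of the 18 genes tested was called (median -1.58). Krt6a, the keratin induced in migrating keratinocytes, stood at 18664, 15259 and 7773 against 135239, 15411 and 28202, and Krt17 at 4351, 3416 and 1614 against 24174, 2992 and 3549.8. Of the 65-base windows of Krt6a 53.6% lie in another gene too, mostly Krt6b, so its counts are uncertain. Resting epidermis (12 tested) and nail and hair keratins (13 tested) had medians of -0.37 and 0.31 and no call.

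**Figure D4:**
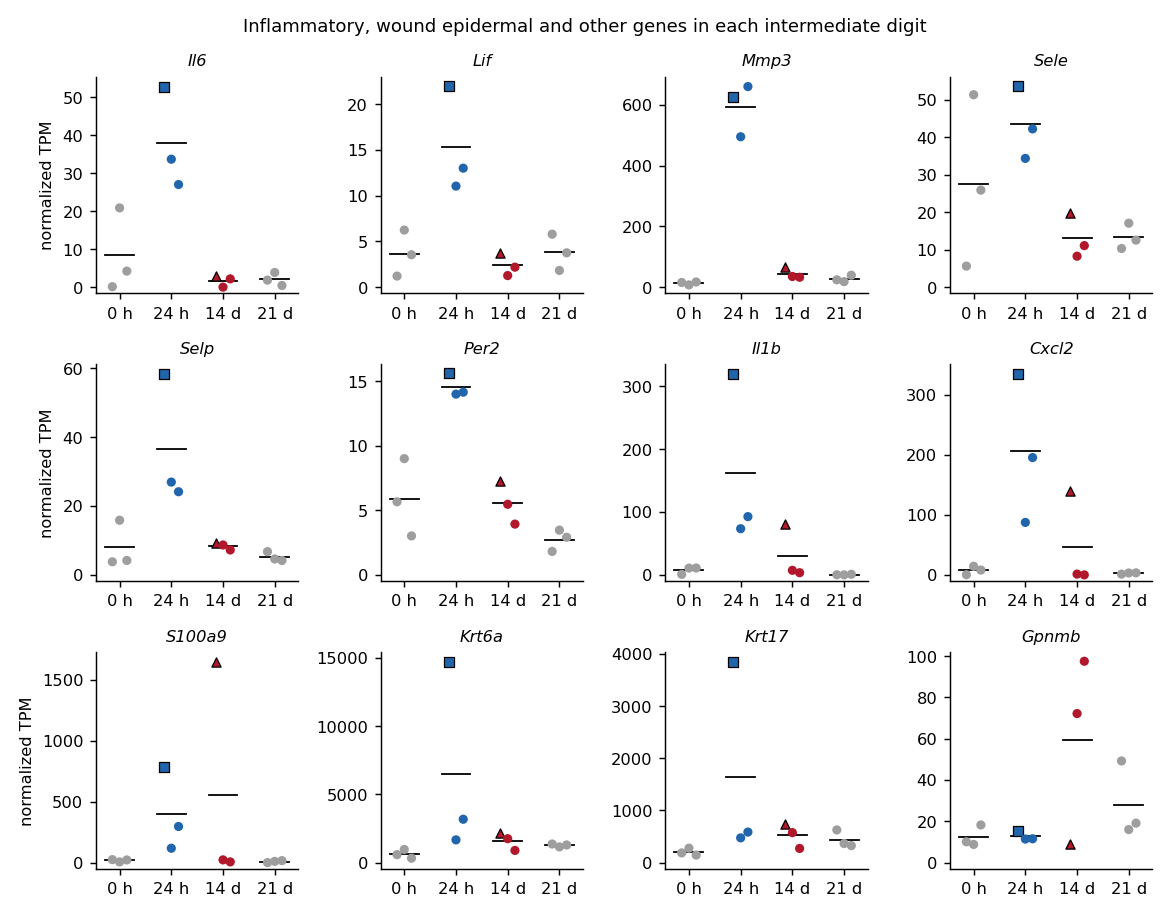
Each panel shows 1 gene in the 12 intermediate digits, in the authors' normalized TPM on a linear scale, with 3 digits at each time and a bar at their mean. For Il6, Lif, Mmp3, Sele, Selp and Per2 all 3 digits at 24 hours (blue) lie above all 3 at 14 days (red). For Il1b, Cxcl2 and S100a9 the triangle (the 42% digit at 14 days) stands among the 24-hour digits or above them, and for Krt6a and Krt17 the square (the 41% digit at 24 hours) stands alone.

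None of 20 cell cycle genes was called and the median log2 fold change was 0.00. Mki67, a protein of dividing cells, stood at 1799, 1422 and 1839 at 14 days and at 1237, 868 and 838 at 24 hours (adjusted p = 0.133). The replication licensing gene Mcm3 ran the other way at 218, 88.8 and 148 against 593, 247 and 339 (adjusted p = 0.153). No gene was called among 14 immediate early genes (median -0.40), 19 of hypoxia and glycolysis (-0.56), 11 of smooth muscle and myofibroblasts (-0.02) and 10 of Schwann cells (-0.06). Acta2, the actin of myofibroblasts and vessel walls, stood at 930.1, 884 and 940.0 against 752, 703 and 872. Skeletal muscle, adipocyte, erythroid, and lymphocyte and mast cell lists had 2, 4, 2 and 4 members above the filter, with no call. The skeletal muscle list summed to between 41.1 and 70.2 normalized counts at 14 days and between 59.2 and 127 at 24 hours.

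Levels at 0 hours and at 21 days were read from the other 6 intermediate digits, of which the 3 at 0 hours were cut at 52%, 53% and 55% and collected at once, in the authors' normalized TPM, where a level can be compared between genes. No test was run on them. Col1a1, Postn and Cthrc1 were low both at 0 hours and at 24 hours. Col1a1 lay between 145 and 426 at 0 hours, between 130.3 and 261 a day after the cut, between 3069.5 and 5547 after 14 days and between 1632 and 4199 after 21 days. Postn lay between 66.7 and 166 at 0 hours, between 67.9 and 103 a day after the cut, between 668 and 3743 after 14 days and between 1095 and 1919 after 21 days. The level at 21 days was within the range at 14 days for Postn and overlapped it for Col1a1. Cthrc1 had no such overlap, lying between 174 and 455 after 14 days and between 84 and 169 after 21 days.

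Ibsp, Bglap2 and Ctsk were above the digits at 24 hours at 21 days too. Ibsp lay between 25.5 and 64.3 at 0 hours, between 51.1 and 92.1 a day after the cut, between 374 and 1401 after 14 days and between 115 and 479 after 21 days. Bglap2 was present at 0 hours (between 1.37 and 18.5), was listed at 0 in the 3 digits at 24 hours, and lay between 46.5 and 97.5 after 14 days and between 38 and 74.2 after 21 days. All 3 digits at 0 hours thus lay above those at 24 hours. As said above, the share of reads that Bglap2 received among its near copies is uncertain, and this holds at each time. Ctsk lay between 17.3 and 39.6 a day after the cut, between 263 and 385 after 14 days and between 146 and 261 after 21 days.

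For Mmp3 and Il6 the digits at 24 hours stood above those of all other times. Mmp3 lay between 7.39 and 17 at 0 hours, between 495 and 660.1 a day after the cut, between 32.5 and 65 after 14 days and between 18 and 39.2 after 21 days. The lowest of its digits at 14 days was above the highest at 0 hours. Il6 lay between 0.115 and 20.8 at 0 hours and between 27 and 52.7 a day after the cut, and did not exceed 2.96 at 14 days or 3.84 at 21 days. For Sele the digits at 0 hours lay between 5.61 and 51.4 and overlapped the digits at 24 hours.

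The same times can be read in non-regenerative digits, which share no library with those above. They were cut at 63%, 77% and 80% for 14 days and at 63%, 68% and 73% for 24 hours. The label of the 80% digit shares its code, date and side with that of the intermediate 42% digit at 14 days. If 1 of those labels is wrong, the pair may share an animal, so the intermediate and non-regenerative sets may not be independent. The 63% digit of each group carries the non-regenerative label although the study places that class at deeper cuts, and at 14 days it is 1 of the 2 digits left without the 77% digit. No gene was called there (0 of 13305 by edgeR, with 1460 at an unadjusted p under 0.05), while DESeq2 called 450 higher and 65 lower. The 77% digit at 14 days stood apart from the other 11 libraries of the 4 groups. Its Spearman correlations with them were 0.679 to 0.743, against 0.907 to 0.978 among the rest. Without it 474 genes were called higher (3.44%) and 226 lower (1.64%), which is 5.08% in all.

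In that fit without the 77% digit the matrix genes were higher at 14 days in the non-regenerative digits too. The fit keeps the 80% digit, so its overlap with the intermediate result is not known to be an independent repeat. Of the 166 genes higher in intermediate digits 140 were called higher there, which is 84.3% of the former list and 29.5% of the latter. Of the 13 lower genes 5 were called lower there (38.5% and 2.21%), namely Psg16, Krit1, Nme1, Npm3 and Exoc4. The ratio of Psg16 to Krit1 counts varied little over the 6 intermediate digits compared, as given above. Whether Psg16 and Krit1 count as separate falls was not tested. The log2 fold change of Col1a1 was 4.45 in intermediate and 5.77 in non-regenerative digits, that of Postn 4.65 and 5.08, and that of Tgfb3 2.93 and 3.79. The list of collagens had 20 calls there and that of collagen processing 15. Osteoblast genes had 3 (Ibsp, Pth1r and Panx3). Runx2 had a log2 fold change of 0.82 there beside 2.06 in intermediate digits, and Phex 2.39 beside 3.75. The wound epidermal genes Krt6a, Krt16, Krt17, Sprr1b and Serpinb2 were called lower in the non-regenerative digits.

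Whether the change from 24 hours to 14 days differed with the amputation level was tested by an interaction term over the 12 digits. No gene was called (0 of 14002 by edgeR, 667 or 4.76% at an unadjusted p under 0.05), and DESeq2 called 6. Of the 179 genes called in intermediate digits, 29 had an unadjusted p under 0.05 by edgeR, and 29 did without the 77% digit. Those 179 were picked by their change in the same intermediate digits, so their share is no test. For Runx2 the difference of the changes was 1.79 ± 0.97 (SE, intermediate minus non-regenerative, adjusted p = 0.787), for Mmp3 -1.06 ± 1.21 (adjusted p = 0.836) and for Col1a1 -1.53 ± 0.70 (adjusted p = 0.787). The 5 smallest p-values belonged to Defb6, Acoxl, Atp12a, Krt15 and Krtap28-13, each with an adjusted p of 0.787. Leaving out any 1 of the 12 digits gave no call either.

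**Figure D5:**
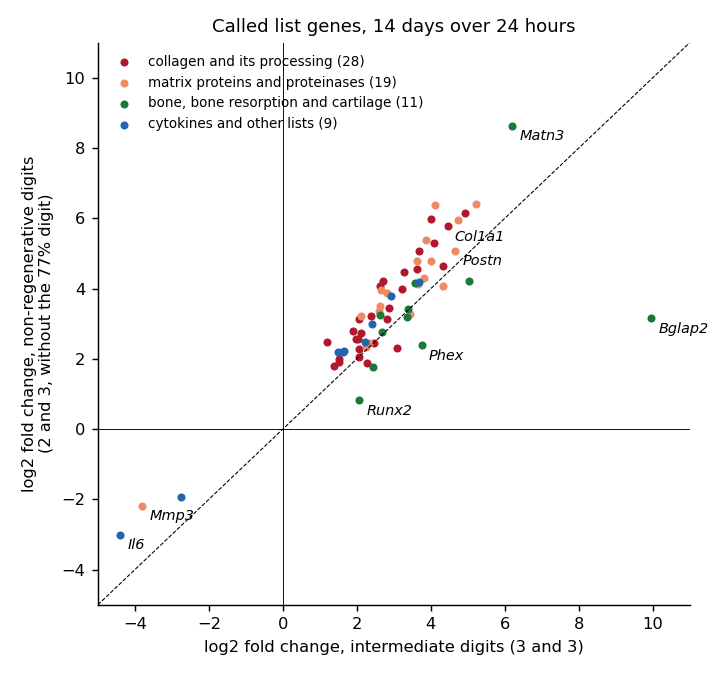
Each point is 1 of the 67 called list genes, with its log2 fold change at 14 days over 24 hours in intermediate digits (horizontal, 3 and 3 digits) and in non-regenerative digits without the 77% digit (vertical, 2 and 3 digits), both on a log2 scale. The vertical axis includes the 80% digit, whose label shares code, date and side with that of the intermediate 42% digit. The dashed line marks equal change. All 67 have the same sign on both axes, Runx2, Phex and Bglap2 lie below the line, and the interaction was not called for any of them.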

How the data were processed

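Poly(A) RNA of single mouse digit tips was sequenced by the study as single-end reads. Per the labels and the study's methods, the authors aligned the reads with Bowtie, estimated gene levels with RSEM 1.2.3 (submitters' processing notes, which also name CASAVA and mm10) and deposited expected counts per gene, which are estimated and need not be whole. The authors also deposited a table of TPM scaled by median normalization, treated here as a signal because its columns sum to between 8.36e+05 and 1.08e+06. Whether the counting used strand is not given in the sources used here. The study's own test was not at hand, and edgeR took its place. No columns of comparisons were used, 0 columns lacked a sample, and the macrophage tables were not used here.

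The expected counts were rounded to whole numbers and genes were kept by edgeR's filterByExpr, which left 13168 of 21954. Totals of 3408916 to 10862504 counts per library set the precision, and intervals and floors (3 counts in the library) cover counting error only. Replicate digits differed by more than counting error in all 6 pairs (chi-square per degree of freedom 12.6 to 72.7), so none was a repeated library. TMM scaling and the quasi-likelihood test of edgeR 4.0.16 (R 4.3.3) were run on the 6 libraries, with p-values adjusted over all genes tested by Benjamini-Hochberg. The scripts were tested on simulated data with known changes. Alternatives were DESeq2 1.42.0, limma 3.58.1 with voom, limma on the log2 of normalized TPM plus 1 or 0.1 for genes with a mean of at least 1, other size factors, no filter, all 12 intermediate digits in 1 fit, a term for the date period of the labels, no fold threshold and leaving out each digit. The non-regenerative change and the interaction used the same test.

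The members and the 28 lists (473 entries in the table) were chosen with earlier results of these data known. Any list gene could be named. Beyond the lists, the rule took the 12 largest rises and 12 largest falls among called genes with a mean of at least 100 normalized counts in the higher group and no overlap, and the 5 interaction genes of smallest p. Ephx1 and the genes of the closing observations were named after their values were seen. As deposited, 26 names of genes read as dates and were restored from the listed transcripts. Shared sequence was measured as the share of 65-base windows of a gene's transcripts also found in another gene (GENCODE M21, GRCm38). Promoters came from RefSeq, GRCm38.p6.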

Additional observations from a re-analysis of the deposited data

How the results depend on the processing

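Higher and lower genes at 14 days numbered 461 and 135 by DESeq2, 92 and 8 by limma with voom, 224 and 35 without a filter, 393 and 87 with all 12 intermediate digits in 1 fit, 87 and 4 with the date period as a term, and 79 and 3 or 72 and 2 by limma on log2 of normalized TPM plus 1 or plus 0.1. Leaving out each digit gave 41 to 307 higher and 1 to 137 lower. Among list genes, 41 rose with the date period and 42 on log2 of normalized TPM plus 0.1, and 29 to 78 with a digit left out. Falls among list genes numbered 19 (DESeq2), 7 (no filter), 9 (12 digits), and 1 each with voom, the date period and TPM plus 0.1, and 1 to 15 with a digit left out. In non-regenerative digits DESeq2 called 450 higher and 65 lower, and leaving out each digit gave 0 to 474 and 0 to 226, the upper values without the 77% digit. DESeq2 called 6 genes for the interaction, and leaving out each digit gave 0. The 73 called genes named kept their direction in all 1022 alternative values, and 293 of these values missed the threshold. Of these genes 25 were called throughout, and 31 lost their call with the date period, 17 with voom and 0 with DESeq2. Genes without a call changed sign as follows (log2 fold changes). With the date period Col18a1 was -0.11, Bmp2 -0.065, S100a9 -1.05 and Pecam1 -0.036. S100a9 was -1.59 with voom and -2.25 or -2.33 on TPM plus 1 or plus 0.1, where Col2a1 was -0.18 for the latter. With a digit left out the ranges were -0.16 to 0.39 for Col18a1, -1.01 to 1.28 for Col2a1, -0.22 to 1.75 for Mmp13, -0.086 to 0.25 for Bmp2, -3.74 to 1.71 for S100a8, -4.78 to 1.39 for S100a9 and -0.11 to 0.39 for Pecam1. The cause was not tested. No paired analysis was possible because the labels number no digits. Among the intermediate and non-regenerative digits of the times compared, 1 label is shared in code, date and side. That label links digits of the same time only. Elsewhere in the series other labels shared in this way link digits of different times. The smallest library limits what can be seen at low levels, since 3 counts there stand for more normalized counts than in the others.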

Other observations

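Mkx and Six4 also rose and are given singly, chosen after their values were seen. Mkx, a homeobox factor of tendon, stood at 91.7, 147 and 91.1 normalized counts at 14 days and at 24.8, 11.1 and 23.5 at 24 hours (log2 fold change 2.45 ± 0.41, adjusted p = 0.0308). Six4, another homeobox factor, stood at 46.5, 44.4 and 41.1 against 7.07, 2.47 and 6.64. Scx, another tendon factor, was higher in all 3 digits but was not called (adjusted p = 0.0847).

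Of 10 imprinted genes looked at after values were seen, Peg3, Plagl1 and Grb10 rose and the other 7 were not called. Peg3 stood at 143, 197 and 268 at 14 days against 55.4, 27.2 and 56.8 (adjusted p = 0.0353). Plagl1 stood at 125, 292 and 332 against 56.6, 39.6 and 44.1 (adjusted p = 0.0285). Grb10, an adaptor of growth factor receptors, stood at 394, 663 and 793 against 117, 103 and 139.5 (adjusted p = 0.00824). Among those not called, Mest had a log2 fold change of 2.52 (adjusted p = 0.0925), Peg10 of 1.88 (adjusted p = 0.251), Sgce of 1.39 (adjusted p = 0.123), Ndn of 1.1 (adjusted p = 0.350), Cdkn1c of 0.83 (adjusted p = 0.425), Igf2r of 0.50 (adjusted p = 0.192) and Igf2 of -0.37 (adjusted p = 0.763).

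Per2 was called lower, while the clock genes Per1, Per3, Nr1d1 and Arntl were not called. Nr1d2, Dbp, Tef, Hlf, Clock, Npas2, Cry1 and Cry2 were also looked at, and none of them was called lower. Per1 had a log2 fold change of -0.41 ± 0.30 (adjusted p = 0.524), Per3 of 0.21 ± 0.27 (adjusted p = 0.731) and Nr1d1 of -0.04 ± 0.23 (adjusted p = 0.949). Arntl stood at 271, 339 and 336 against 236, 263 and 254 (adjusted p = 0.397). The hour of sampling is not given in the sources used here.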
